A study of Homo sapiens with 12 samples.

Results

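The genes of 3 cell-guidance systems (Eph receptors with ephrins, semaphorins with plexins and neuropilins, and Slits with Robos) were compared between 4 lines of MIA PaCa-2, an established human pancreatic carcinoma cell line. Members were taken by symbol: Eph receptors (EPHA and EPHB with a number), ephrins (EFNA and EFNB), semaphorins (SEMA), plexins (PLXN), the neuropilins NRP1 and NRP2, Slit ligands and Robo receptors. The rule found 60 of the 63086 genes in the table, and 50 of them had a mean of at least 10 normalised counts over the 12 libraries and were tested. A normalised count is the number of reads of a gene divided by a size factor of its library. WT was unmodified MIA PaCa-2, CRISPR Control had passed through CRISPR-Cas9 editing and kept only a silent point mutation in TIMP1, and TIMP1 KO 1 and TIMP1 KO 2, called KO 1 and KO 2 here, were knockout clones made with a pair of guide RNAs against different regions of exon 4. TIMP1 codes for tissue inhibitor of metalloproteinases 1. The labels name no treatment, all lines were grown in the same serum-containing medium, and each had 3 libraries named as biological replicates in the titles. Nothing says that they were separate cultures, so the p-values measure the spread between these libraries, which may be technical. Each KO line is 1 clone and CRISPR Control is 1 line, so a change tied to TIMP1 and a difference between clones cannot be told apart. The families were chosen by symbol, but they were selected on measured values in the sense that EPHA4 had been seen among the lowest changes of the KO lines against WT and CRISPR Control. EPHA4 is therefore described without a test in comparisons of a KO line with those lines, and nothing is read from its place in a count. EPHA5 and ROBO2 passed the minimum only through CRISPR Control, where they are high, so they had to differ there, and nothing is read from their place in the counts of that line.

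Eph receptors are receptor tyrosine kinases that bind ephrins on neighbouring cells. Ephrin-A ligands are held in the membrane by a lipid anchor and ephrin-B ligands cross it, so that contact can signal into both cells, usually toward repulsion or sorting. Semaphorins bind plexins, and class 3 semaphorins, which are secreted, mostly need a neuropilin as coreceptor. Secreted Slits bind Robo receptors. These systems were named for the steering of axons and are also used by epithelia, vessels and carcinoma cells in attachment and migration.

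The libraries held 26908701 to 36093563 reads in genes, and a count of 0 allows up to 3 reads, or 2.49 to 3.56 normalised counts, a floor that covers counting error only. TIMP1 itself lay between 3290.2 and 3837 normalised counts in WT, 2285 and 2959 in CRISPR Control, 1562 and 1624 in clone KO 1 and 1136 and 1192 in clone KO 2. Epithelial markers were high in all lines, but the summed level of KRT8, KRT18, KRT19, EPCAM and CDH1 was lower in CRISPR Control, at 56497 to 72652, than in WT (193160 to 216434), KO 1 (215549 to 223400.4) and KO 2 (174138 to 198045). The keratins made up most of that sum. KRT19 averaged 15707 in WT, 4583 in CRISPR Control, 24591 in clone KO 1 and 52497 in clone KO 2. EPCAM averaged 1890 in WT, 1875 in CRISPR Control, 2036 in clone KO 1 and 1299 in clone KO 2. CDH1 lay near WT in CRISPR Control and was low in both KO lines, with means of 1189 in WT, 1424 in CRISPR Control, 128 in clone KO 1 and 84.9 in clone KO 2. The mesenchymal genes VIM, CDH2, ZEB1 and FN1 summed to 71523 to 74556 in WT, 54294 to 65673 in CRISPR Control, 93255 to 96567 in clone KO 1 and 71311 to 77832 in clone KO 2. VIM made up most of these sums. CDH2 differed from VIM in its order, with means of 571 in WT, 1110 in CRISPR Control, 93.7 in clone KO 1 and 384 in clone KO 2. ZEB1 averaged 1226 in WT, 954 in CRISPR Control, 1288 in clone KO 1 and 1258 in clone KO 2. FN1 averaged 826 in CRISPR Control and 51.2 to 105 in the other lines. Of 5 leukocyte markers 1, CD14, passed the minimum of 10, of 3 endothelial markers 0, and of 3 fibroblast markers 1, PDGFRB. PTPRC, CD3E, DCN and LUM were at or near 0. All 3 neuron markers (RBFOX3, SYT1 and SNAP25) passed, with sums of 205 to 248 in WT, 452 to 491 in CRISPR Control, 149.6 to 209 in clone KO 1 and 945 to 982 in clone KO 2. SYT1 made up most of these sums, and the others had different orders. SNAP25 averaged 57.1 in WT, 4.84 in CRISPR Control, 10.03 in clone KO 1 and 21.1 in clone KO 2. RBFOX3 averaged 8.55 in WT, 29.9 in CRISPR Control, 10.004 in clone KO 1 and 21.7 in clone KO 2. The part of these marker levels in the differences below was not tested. In bulk RNA, fewer cells with a transcript and less of it per cell cannot be told apart.

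Most members differed between lines, and the median size of change from WT was larger in CRISPR Control than in either KO line. By limma with p-values adjusted over all 15987 genes tested, 37 of the 50 members (74.0%) passed 0.05 between CRISPR Control and WT, against 53.4% of all genes. Higher in CRISPR Control were 23 (27.2% of all genes) and lower 14 (26.3%). Between KO 1 and WT 26 members (52.0%) passed, against 35.5% of all genes, with 6 higher (18.0% of all genes) and 20 lower (17.5%). Between KO 2 and WT 35 (70.0%) passed, against 55.0%, with 14 higher (27.1%) and 21 lower (27.9%). These comparisons share the WT libraries.

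Against CRISPR Control the lower members outnumbered the higher ones in both KO lines. KO 1 differed in 45 members (90.0%), against 63.0% of all genes, with 16 higher (31.7%) and 29 lower (31.3%). KO 2 differed in 41 (82.0%), against 67.7%, with 14 higher (33.3%) and 27 lower (34.4%). Between the clones themselves 34 members (68.0%) passed, against 38.2%, with 20 higher in KO 2 (18.1%) and 14 lower (20.1%). The median absolute log2 fold change of the members was 0.71 for CRISPR Control against WT, where all genes had 0.35. It was 0.45 and 0.56 for KO 1 and KO 2 against WT, where all genes had 0.24 and 0.37. An absolute log2 fold change of at least 1 was reached by 12 called members in KO 1 against WT (8.21% of all genes), 15 in KO 2 against WT (14.7%), 18 in CRISPR Control against WT (14.7%), 26 in KO 1 against CRISPR Control (21.2%), 25 in KO 2 against CRISPR Control (24.5%) and 14 in KO 2 against KO 1 (8.25%). Log2 fold changes are of log2(normalised count + 1), which understates the change of low genes. A difference given with ± and an adjusted p is such a log2 fold change with its SE.

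**Figure D1:**
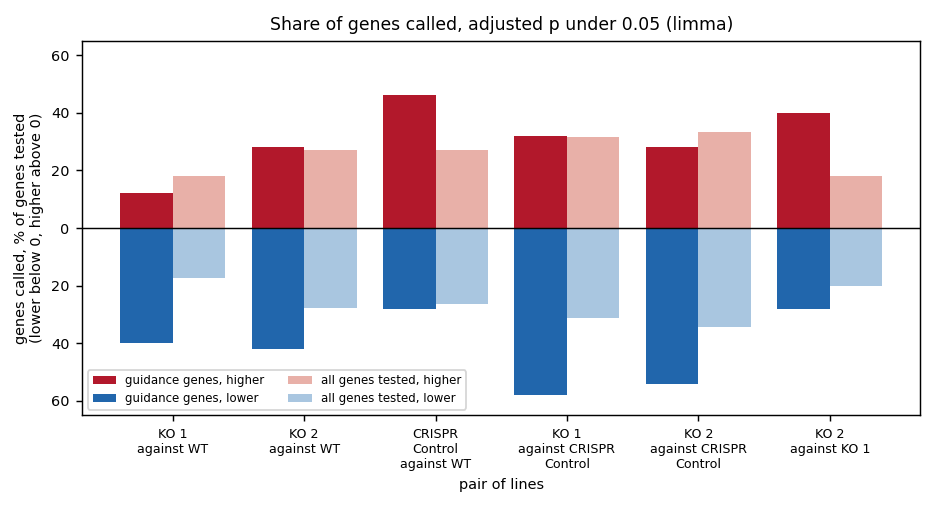
Share of genes called by limma (adjusted p under 0.05) in each pair of lines, in percent of the 50 tested guidance genes (dark bars) and of all 15987 genes tested (light bars), with genes higher in the first line above 0 and lower below 0. Guidance genes were called more often than all genes in each pair. The excess lay mainly among those lower in a KO line than in WT or CRISPR Control. It also lay among those higher in CRISPR Control than in WT or higher in KO 2 than in KO 1.

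A line was set apart from each of the other 3 when all 3 of its pairs passed in 1 direction. CRISPR Control was the highest line in this sense for 21 members (42.0%), against 17.3% of all genes, and the lowest for 10, against 17.8%. The 21 include EPHA5 and ROBO2, which were tested only through that line, and nothing is read from their place. KO 1 was lowest for 10 members, against 3.75% of all genes, and highest for 2, NRP2 and SEMA6C, against 3.05%. KO 2 was highest for 9 (18.0%), against 9.53%, and lowest for 7 (14.0%), against 11.3%. WT was highest for 0 members by limma, against 2.80% of all genes, and for 1, EPHA4, by unadjusted limma p, by edgeR and by DESeq2. EPHA4 was known beforehand for its low level in the KO lines, so nothing is read from that place. It was lowest for 1, SEMA3F, against 3.91%. The members that KO 1 held lowest were EPHA4, EPHB3, EFNB1, EFNB2, SEMA3A, SEMA3D, SEMA3E, SEMA7A, SLIT3 and PLXNA2, and those that KO 2 held highest were EPHA10, EPHB1, EPHB2, EPHB6, EFNA5, NRP1, PLXNA2, PLXNA3 and PLXNA4.

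**Figure D2:**
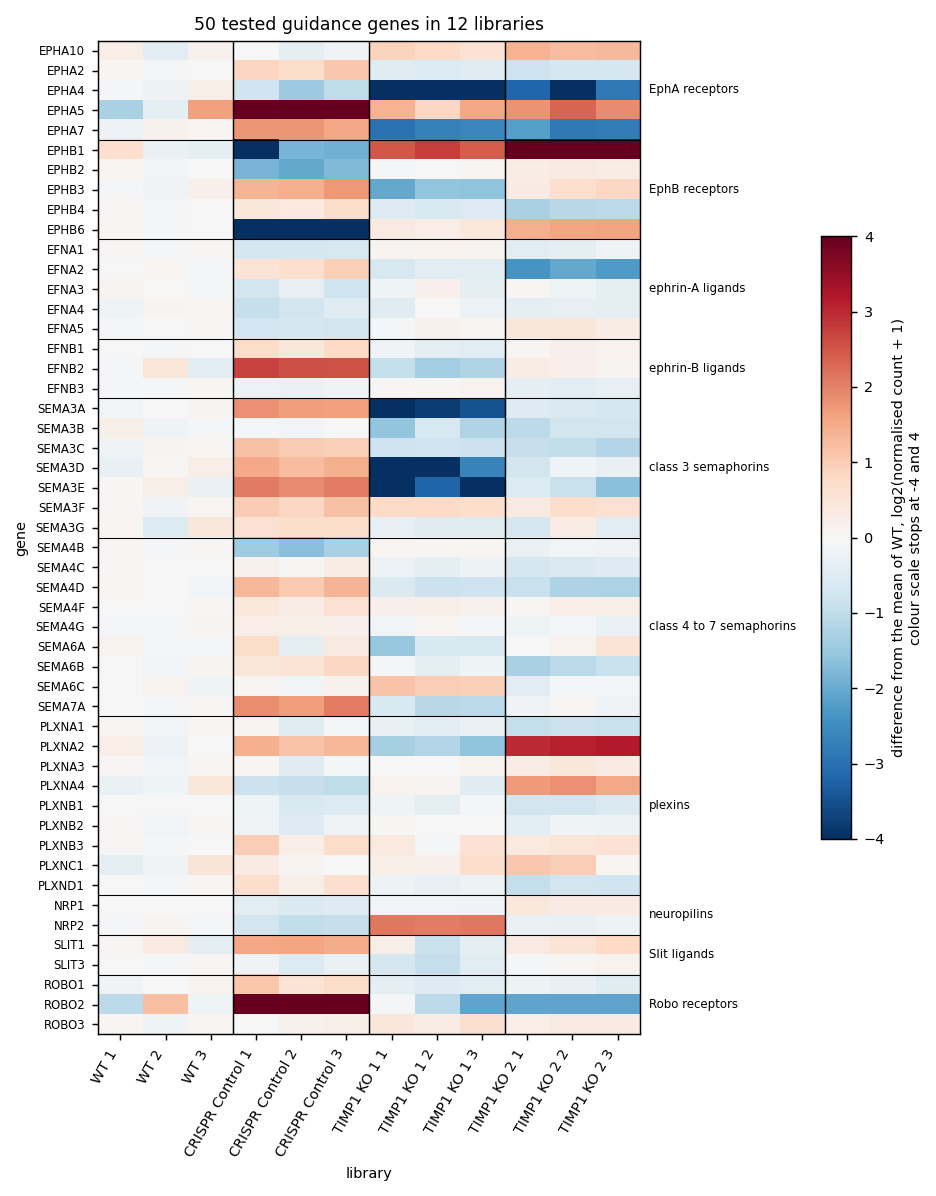
Log2(normalised count + 1) of the 50 tested guidance genes (rows, by family) in the 12 libraries (columns), as the difference from the mean of the 3 WT libraries; the colour scale stops at -4 and 4. The 3 libraries of a line share their colours in most rows, and deep colours lie, among others, in EPHB6, EPHA5, EPHB1 and ROBO2 in CRISPR Control, in EPHA4, SEMA3A, SEMA3D and SEMA3E in KO 1 and in EPHB1 and PLXNA2 in KO 2.

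Among the Eph receptors, EPHA2, EPHB6, EPHB4 and EPHB2 made up nearly all of the level per exon length, except that EPHB6 was nearly missing from CRISPR Control. EPHA2 is a receptor of ephrin-A ligands that is abundant in many epithelial cancers, EPHB4 is the main receptor of EFNB2, EPHB2 binds ephrin-B ligands, and EPHB6 has a kinase domain without catalytic activity. Per kilobase of exon, in normalised counts, the 14 Eph genes summed to 7872 ± 433 in WT, 9579 ± 1140.0 in CRISPR Control, 6693 ± 211 in clone KO 1 and 9056 ± 472 in clone KO 2 (SD, n = 3). EPHA2 held 49.2% ± 0.210 of that sum in WT, 75.02% ± 0.251 in CRISPR Control, 40.7% ± 0.746 in clone KO 1 and 25.7% ± 0.255 in clone KO 2. EPHB6 held 21.5% ± 0.0945 in WT, 0.0355% ± 0.0187 in CRISPR Control, 31.97% ± 0.728 in clone KO 1 and 54.3% ± 0.353 in clone KO 2. The leading Eph receptor was thus EPHA2 in WT, CRISPR Control and KO 1 and EPHB6 in KO 2, and neither gene's share overlapped between libraries of different lines. EPHB4 took 21.1% ± 0.392 of the sum in CRISPR Control and 6.89% ± 0.249 in KO 2, and EPHB2 took 10.3% ± 0.179 in WT and 2.30% ± 0.107 in CRISPR Control.

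**Figure D3:**
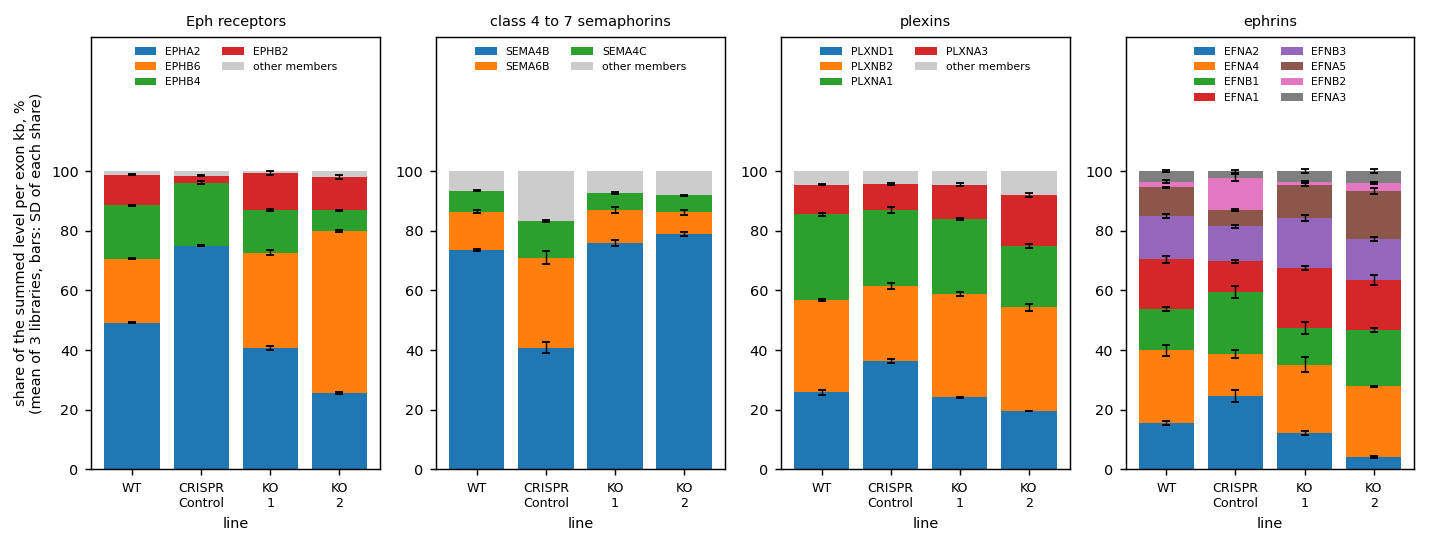
Share of each gene in the summed normalised count per exon kilobase of its group in the 4 lines (bars stacked to 100%, mean of 3 libraries, error bars SD of each share). EPHB6 grows from 21.5% of the Eph receptors in WT to 54.3% in KO 2 and is not visible in CRISPR Control, where SEMA4B also holds less of class 4 to 7 than elsewhere.

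EPHB6 (ENSG00000106123.13, chromosome 7, 142855061 to 142871094, plus strand, GRCh38) showed the largest difference of all members. Its normalised counts were 9432, 8496 and 9103 in WT, 16.4, 8.30 and 31.9 in CRISPR Control, 11427, 10770.3 and 12004 in clone KO 1 and 24590.1, 26692 and 27224 in clone KO 2. The CRISPR Control libraries lay far below all others, and the KO 2 libraries lay above all others. The log2 fold change of CRISPR Control against WT was -9.01 ± 0.26 (limma adjusted p = 1.26e-15). KO 2 differed from WT by 1.54 ± 0.26 (limma adjusted p = 5.16e-05) and from KO 1 by 1.20 ± 0.26 (limma adjusted p = 0.00106). Between KO 1 and WT the difference of 0.34 ± 0.26 did not pass the threshold (limma adjusted p = 0.328).

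EPHB1 (ENSG00000154928.19, chromosome 3, 134795260 to 135260467, plus strand), another receptor of ephrin-B ligands, also went from near 0 in CRISPR Control to its highest level in KO 2. Its normalised counts were 24.9, 12.7 and 11.4 in WT, 0, 3.56 and 3.30 in CRISPR Control, 91.8, 110.3 and 87.5 in clone KO 1 and 625, 657 and 617 in clone KO 2. No library of a line overlapped with one of another line. The 3 CRISPR Control libraries were at or under the floor of 3 reads, so EPHB1 was at least 30.7-fold higher in clone KO 1 and at least 201-fold higher in clone KO 2 than there. In turn CRISPR Control was at least 5.19-fold lower than the WT mean. Against WT the log2 fold change was 2.56 ± 0.42 (limma adjusted p = 9.5e-05) in KO 1 and 5.27 ± 0.42 (limma adjusted p = 4.65e-09) in KO 2. KO 2 lay above KO 1 by 2.71 ± 0.42 (limma adjusted p = 4.76e-05).

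EPHB2 kept a similar level in WT and KO 1 and was low in CRISPR Control. Its normalised counts were 10829, 9408 and 10349.9 in WT, 2801, 2449 and 3008 in CRISPR Control, 9649, 10328 and 10745 in clone KO 1 and 12447, 13120.3 and 12416 in clone KO 2. The log2 fold change of CRISPR Control against WT was -1.89 ± 0.08 (limma adjusted p = 4.67e-13), and that of KO 2 against WT 0.31 ± 0.08 (limma adjusted p = 0.00256). EPHB4 had the opposite order, with counts of 9391, 8655 and 8983 in WT, 12279, 11837 and 14890.1 in CRISPR Control, 6335, 5852 and 6357 in clone KO 1 and 3626, 4170.0 and 4277 in clone KO 2. Every line differed from every other in EPHB4, with 0.52 ± 0.09 (limma adjusted p = 5.15e-05) for CRISPR Control, -0.54 ± 0.09 (limma adjusted p = 6.55e-05) for KO 1 and -1.17 ± 0.09 (limma adjusted p = 1.64e-09) for KO 2 against WT. EPHB3, which with EPHB2 sorts cells along the intestinal crypt, moved in opposite directions in the KO lines. Its counts were 75.8, 71.8 and 92.4 in WT, 206, 222 and 269 in CRISPR Control, 18.4, 25.9 and 25.6 in clone KO 1 and 100.2, 128 and 143 in clone KO 2, with KO 1 below all other libraries and KO 2 above those of WT. The log2 fold change against WT was -1.75 ± 0.19 (limma adjusted p = 8.37e-07) in KO 1 and 0.62 ± 0.19 (limma adjusted p = 0.0107) in KO 2. Without KO 2 replicate 3, the higher level of KO 2 no longer passed (0.50, limma adjusted p = 0.0579). Of the 50 members, 2 were called against WT in opposite directions in KO 1 and KO 2, EPHB3 and PLXNA2, against 1.69% of all genes.

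**Figure D4:**
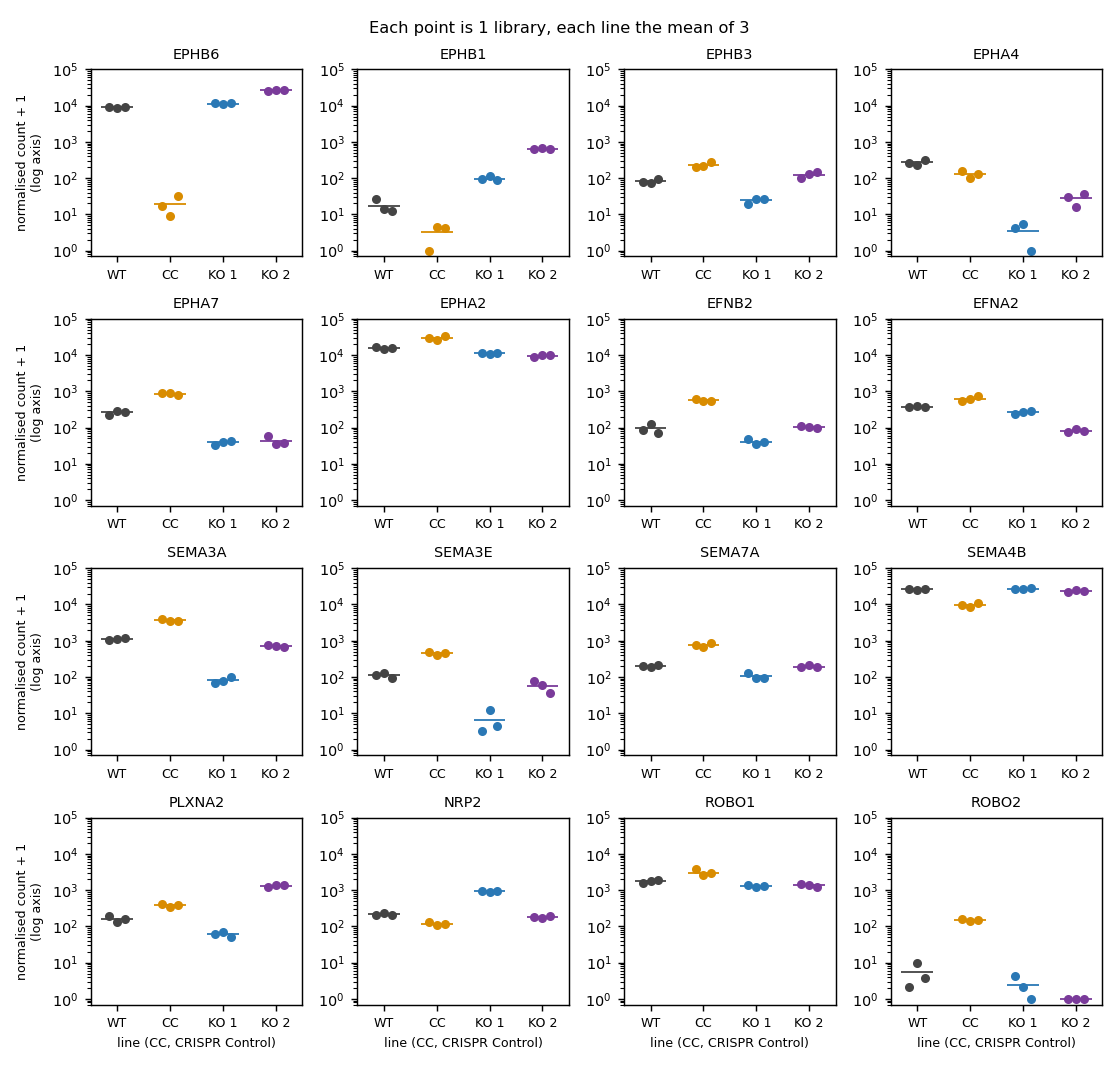
Normalised count + 1 (log axis, the same in every panel) of 16 guidance genes in the 4 lines, with 1 point for each library and a line at the mean of 3. EPHB6 and EPHB1 are lowest in CRISPR Control and highest in KO 2, whereas EPHA7, EFNB2, SEMA3A, SEMA3E, SEMA7A and ROBO2 are highest in CRISPR Control.

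Genes beside EPHB6 on chromosome 7 were looked up after its values had been seen, so they are described without a test. PRSS2, a trypsinogen gene, averaged 152 ± 10.5 normalised counts in WT, 14.6 ± 5.37 in clone KO 1 and 38.04 ± 4.50 in clone KO 2 (SD, n = 3) and had 0 in CRISPR Control. TRBC2, a constant segment of the T cell receptor beta locus, averaged 1291 ± 82.8 in WT and 5.28 ± 4.32 in CRISPR Control, and TRBV30, a variable segment, 48.3 ± 10.7 and 0. TRPV6, a calcium channel gene, averaged 226 ± 48.3 in WT, 1.94 ± 1.77 in CRISPR Control, 248 ± 31.5 in clone KO 1 and 954 ± 55.8 in clone KO 2. These 4 genes lie next to EPHB6 with starts within 94.7 kb of its own, and like it they were near or at 0 in CRISPR Control. Farther along, GSTK1 averaged 2507 ± 162 in WT and 2599 ± 197 in CRISPR Control, and CASP2 2169 ± 17.4 and 2068 ± 217. TCAF2 beyond them was again low, at 399 ± 20.2 in WT and 2.54 ± 1.77 in CRISPR Control. Within 1500 kb of EPHB6, 27 other genes were in the tested set, and 10 were lower and 3 higher in CRISPR Control than in WT by limma, against 26.3% and 27.2% of all genes. Since the stretch was chosen by the values of EPHB6, nothing is read from these counts.

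**Figure D5:**
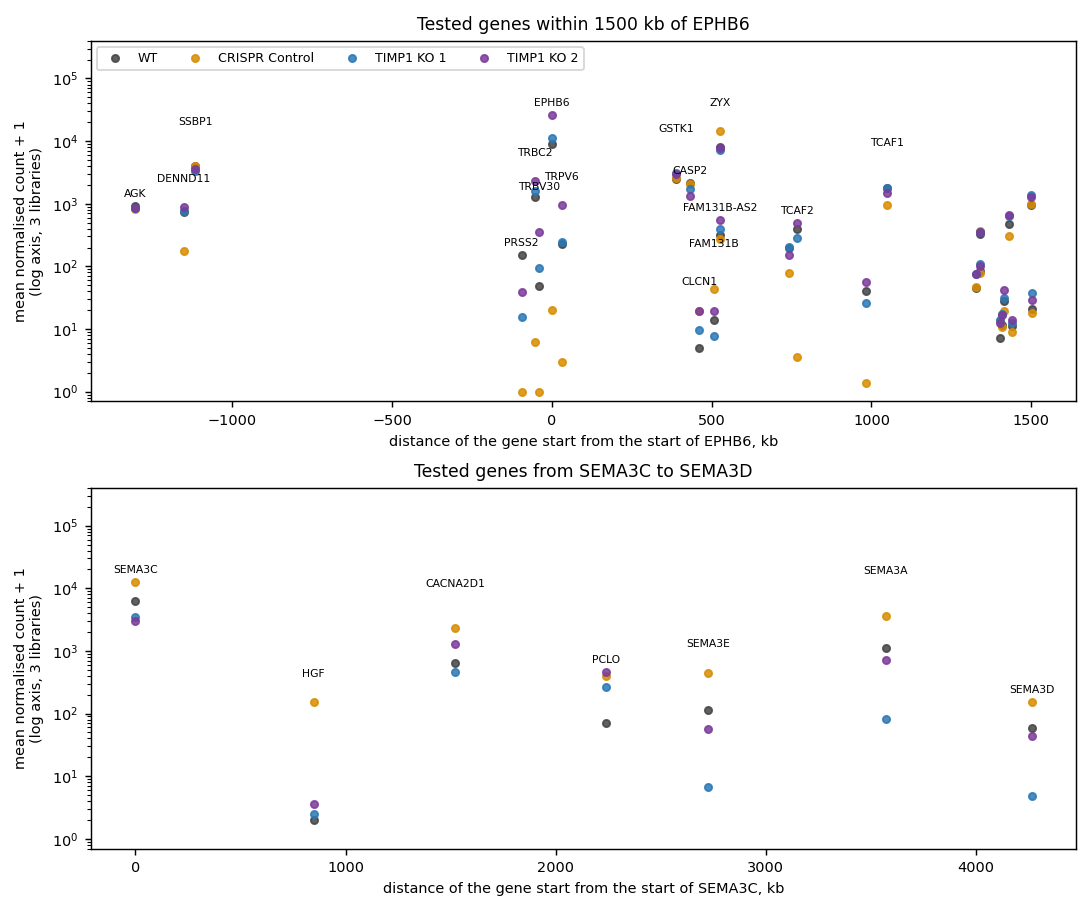
Mean normalised count + 1 (log axis, 3 libraries a line) of the tested genes within 1500 kb of EPHB6 (top) and from SEMA3C to SEMA3D (bottom), by the distance of each gene's start from that of EPHB6 or SEMA3C in kb. CRISPR Control falls to the bottom of the axis from PRSS2 to TRPV6 but not at GSTK1 or CASP2. In the lower panel PCLO is highest in KO 2 and the other genes in CRISPR Control. The stretch was looked up for the semaphorins high in that line, and HGF was tested only through it. Nothing is read from the number of genes highest there.

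Promoter sequences were read for members that moved together, to show what lies at their starts. RefSeq windows (GRCh38.p14) from 250 bases before to 50 bases after a start were found for 54 of the 60 members, in 85 windows, and EFNB3, EPHA10, NRP1, SEMA3A, SEMA6A and SEMA6B had no entry. On both strands, the GC box GGGCGG was in 63 of the 85 windows (74.1%) and in 44.95% of all 35116 windows. The TATA box TATAAA was in 3 (3.53%, and 11.5% of all windows), and the AP-1 site TGANTCA in 1 (1.18%, and 7.71%). The median window of members held 21 CpG dinucleotides, where that of all genes held 14. The windows of EPHB6 and EPHB1 are shown because both genes were lowest in CRISPR Control and highest in KO 2, those of SEMA3D and SEMA3E because both were highest in CRISPR Control and lowest in KO 1, and that of EPHA4 for its low level in both KO lines. Each runs 5′ to 3′ on the gene's strand, with capitals at matches to the 3 motifs above on either strand.
EPHB6: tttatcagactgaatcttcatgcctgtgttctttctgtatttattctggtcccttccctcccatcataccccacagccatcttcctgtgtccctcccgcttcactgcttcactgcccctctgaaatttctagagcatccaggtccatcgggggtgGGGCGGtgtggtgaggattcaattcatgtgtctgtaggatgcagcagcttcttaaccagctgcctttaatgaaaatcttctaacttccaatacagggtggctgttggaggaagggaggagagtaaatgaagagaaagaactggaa
EPHB1: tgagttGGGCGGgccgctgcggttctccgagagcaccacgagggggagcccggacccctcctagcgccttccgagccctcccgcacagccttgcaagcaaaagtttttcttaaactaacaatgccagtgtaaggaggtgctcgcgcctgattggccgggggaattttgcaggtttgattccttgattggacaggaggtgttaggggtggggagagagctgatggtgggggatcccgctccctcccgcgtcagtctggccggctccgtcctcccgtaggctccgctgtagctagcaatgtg
SEMA3D: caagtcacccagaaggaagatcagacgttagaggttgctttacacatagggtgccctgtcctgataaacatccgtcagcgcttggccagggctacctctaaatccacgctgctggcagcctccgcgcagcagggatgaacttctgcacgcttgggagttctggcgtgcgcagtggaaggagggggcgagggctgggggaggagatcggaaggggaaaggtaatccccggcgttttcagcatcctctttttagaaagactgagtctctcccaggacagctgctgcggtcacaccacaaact
SEMA3E: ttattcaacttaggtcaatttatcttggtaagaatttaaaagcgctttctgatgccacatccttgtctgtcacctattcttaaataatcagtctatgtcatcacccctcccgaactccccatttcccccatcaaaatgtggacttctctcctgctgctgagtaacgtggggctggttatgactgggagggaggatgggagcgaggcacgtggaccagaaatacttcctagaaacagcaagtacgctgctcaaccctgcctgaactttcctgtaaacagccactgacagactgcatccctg
EPHA4: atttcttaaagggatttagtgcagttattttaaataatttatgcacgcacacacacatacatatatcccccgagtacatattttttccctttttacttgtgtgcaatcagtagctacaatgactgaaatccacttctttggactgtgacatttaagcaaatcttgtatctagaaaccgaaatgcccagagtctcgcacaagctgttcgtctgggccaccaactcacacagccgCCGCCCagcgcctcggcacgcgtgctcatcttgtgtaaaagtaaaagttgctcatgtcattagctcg
They are chr7:142862506-142862805 on the plus strand, chr3:134795010-134795309 on the plus strand, and chr7:85187007-85187306, chr7:83649090-83649389 and chr2:221574153-221574452 on the minus strand. For SEMA3E and EPHA4, with 2 windows each, the one farther upstream is given, and the EPHB6 window lies inside the gene as the annotation used for positions draws it. The EPHB6 window held 3 CpG dinucleotides and 1 GC box, the EPHB1 window 19 and 1, the SEMA3D window 14 and 0, the SEMA3E window 6 and 0, and the EPHA4 window 12 and 1. A match describes the letters only, and the part of these sequences in the differences was not tested.

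The EphA receptors differed in which line held them. EPHA2 had normalised counts of 16952, 15085 and 16091 in WT, 28836, 26762 and 33686 in CRISPR Control, 11460.4, 11011 and 11373 in clone KO 1 and 8960.4, 9976 and 9988 in clone KO 2, so that CRISPR Control lay above WT and both KO lines below it, without overlap. Its log2 fold change against WT was 0.89 ± 0.08 (limma adjusted p = 3.8e-08) in CRISPR Control, -0.51 ± 0.08 (limma adjusted p = 7.95e-05) in KO 1 and -0.73 ± 0.08 (limma adjusted p = 4.12e-07) in KO 2. EPHA7, an EphA receptor of the developing brain, was also highest in CRISPR Control and below WT in both KO lines, with counts of 224, 294 and 275 in WT, 893, 891 and 770.3 in CRISPR Control, 32.4, 39.4 and 42.4 in clone KO 1 and 56.3, 35.1 and 37.3 in clone KO 2. Its changes against WT were 1.69 ± 0.18 (limma adjusted p = 2.11e-07) in CRISPR Control, -2.76 ± 0.18 (limma adjusted p = 5.41e-10) in KO 1 and -2.62 ± 0.18 (limma adjusted p = 4.79e-10) in KO 2, and KO 2 and KO 1 did not pass the threshold against each other (0.15 ± 0.18, limma adjusted p = 0.552). EPHA5, a relative of EPHA7, had counts of 0, 0.909 and 6.67 in WT, 109, 107 and 84.6 in CRISPR Control, 5.40, 3.38 and 6.18 in clone KO 1 and 7.46, 11.4 and 8.07 in clone KO 2, high in CRISPR Control alone. It entered the tested set only through CRISPR Control, so that difference is given without a test.

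EPHA4 (ENSG00000116106.12, chromosome 2, 221418027 to 221574202, minus strand) binds ligands of both ephrin classes. Its counts were 258, 235 and 319 in WT, 155, 98.4 and 133 in CRISPR Control, 3.24, 4.50 and 0 in clone KO 1 and 28.99, 14.9 and 36.3 in clone KO 2. Every KO library lay below every WT and CRISPR Control library, and the KO 1 libraries held at most 4 reads. KO 2 retained more than KO 1, by 3.19 ± 0.46 (limma adjusted p = 1.92e-05). EPHA10, which like EPHB6 lacks kinase activity, went the other way. Its counts were 127, 77.3 and 117 in WT, 106, 79.5 and 94.5 in CRISPR Control, 196, 185 and 156 in clone KO 1 and 278, 249 and 258 in clone KO 2, with all 6 KO libraries above the 6 others. The log2 fold change against WT was 0.76 ± 0.17 (limma adjusted p = 0.00214) in KO 1 and 1.31 ± 0.17 (limma adjusted p = 3.87e-06) in KO 2, and -0.17 ± 0.17 (limma adjusted p = 0.423) in CRISPR Control. Of the EphA genes under the minimum, EPHA3 averaged 26.1 ± 7.99 in WT and 10.6 ± 6.06 in CRISPR Control and had at most 3 reads in every KO library. It was at least 8.45-fold lower in clone KO 1 and at least 9.62-fold lower in clone KO 2 than in WT, without a test since its mean of 9.80 missed the minimum of 10. EPHA6 averaged 22.5 ± 8.18 in CRISPR Control, was at or under the floor in WT and KO 1, and averaged 2.37 ± 2.51 in KO 2, and EPHA1 and EPHA8 lay between 0.953 and 19.8 in all libraries.

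Of the 8 ephrins, EFNB2, EFNA2 and EFNA5 reached a log2 fold change of 1 in some pair. Per exon kilobase, in normalised counts, all 8 summed to 997 ± 26.98 in WT, 1047 ± 72.8 in CRISPR Control, 904 ± 49.7 in clone KO 1 and 801 ± 11.9 in clone KO 2. EFNB2, the ligand of EPHB4 that marks arteries, had counts of 86.02, 127 and 67.6 in WT, 595, 548 and 538 in CRISPR Control, 46.5, 33.8 and 38.9 in clone KO 1 and 111, 104 and 96.9 in clone KO 2, high in CRISPR Control and lowest in KO 1. CRISPR Control lay above WT by 2.62 ± 0.19 (limma adjusted p = 1.39e-09), and KO 1 lay below WT (-1.18 ± 0.19, limma adjusted p = 8.02e-05). KO 2 was near WT (0.20 ± 0.19, limma adjusted p = 0.396). An opposite-strand long noncoding RNA shares 36.4% of its exon bases, and whether strand was used in counting is not given in the sources used here. EFNA2 had counts of 372, 395 and 360.0 in WT, 549, 597 and 726 in CRISPR Control, 242, 276 and 279 in clone KO 1 and 72.9, 90.3 and 77.7 in clone KO 2, with no overlap between any of the lines and the lowest level in KO 2. Its changes against WT were 0.72 ± 0.13 (limma adjusted p = 9.47e-05) in CRISPR Control, -0.50 ± 0.13 (limma adjusted p = 0.00422) in KO 1 and -2.22 ± 0.13 (limma adjusted p = 4.09e-11) in KO 2. EFNA5 went up in KO 2 and down in CRISPR Control, with counts of 531, 565 and 567 in WT, 323, 338 and 329.7 in CRISPR Control, 519.7, 629 and 587 in clone KO 1 and 760.4, 767 and 687 in clone KO 2. Its changes against WT were 0.41 ± 0.09 (limma adjusted p = 0.00107) in KO 2 and -0.75 ± 0.09 (limma adjusted p = 2.24e-06) in CRISPR Control.

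The other 5 ephrins stayed within a log2 fold change of 1 in all pairs. EFNA1, EFNA3 and EFNA4 lie beside each other on chromosome 1, and all were lower in CRISPR Control than in WT. The log2 fold changes were -0.66 ± 0.11 (limma adjusted p = 3.91e-05), -0.62 ± 0.21 (limma adjusted p = 0.0175) and -0.70 ± 0.14 (limma adjusted p = 3.27e-04) in that order. Reads of EFNA3 and EFNA4 are uncertain, since 43.9% and 15.04% of their exon bases also belong to a readthrough transcript of both. EFNB1 was higher in CRISPR Control (0.66 ± 0.11, limma adjusted p = 3.93e-05) and EFNB3 lower in KO 2 than in WT (-0.39 ± 0.09, limma adjusted p = 0.0015). In all, 4 of the 5 ephrin-A ligands were lower in CRISPR Control than in WT and 1, EFNA2, was higher, while of the 3 ephrin-B ligands 2 were higher and 1, EFNB3, lower, where 26.3% of all genes were lower and 27.2% higher.

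Of the 7 class 3 semaphorins, 5 were higher in CRISPR Control than in WT and 0 lower by limma (0 also at an unadjusted p under 0.05, by edgeR and by DESeq2), where 27.2% of all genes were higher and 26.3% lower. All 7 were lower in each KO line than in CRISPR Control, where 31.3% of all genes were lower in KO 1 and 34.4% in KO 2. Against WT, 5 were lower and 1 higher in KO 1 (17.5% and 18.0% of all genes), and 4 lower and 1 higher in KO 2 (27.9% and 27.1%). SEMA3C, which signals through both neuropilins, held 67.7 to 80.1% of their level per exon kilobase. Its counts were 5477, 6710.3 and 6377 in WT, 14003, 12513 and 11843 in CRISPR Control, 3494, 3516 and 3415 in clone KO 1 and 3267, 3130.2 and 2750.4 in clone KO 2, with no overlap between CRISPR Control, WT and the KO lines. The log2 fold change against WT was 1.05 ± 0.09 (limma adjusted p = 7.59e-09) in CRISPR Control, -0.83 ± 0.09 (limma adjusted p = 4.16e-07) in KO 1 and -1.02 ± 0.09 (limma adjusted p = 1.03e-08) in KO 2.

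SEMA3A, SEMA3D and SEMA3E had their lowest level in KO 1. SEMA3A, the founding repellent of axons that acts through NRP1 and plexin-A receptors, had counts of 1014, 1094 and 1191 in WT, 3903, 3521 and 3400.0 in CRISPR Control, 65.9, 77.6 and 98.1 in clone KO 1 and 759.6, 733 and 672 in clone KO 2, with no overlap between lines. It changed against WT by 1.71 ± 0.12 (limma adjusted p = 6.31e-10) in CRISPR Control, -3.77 ± 0.12 (limma adjusted p = 1.66e-14) in KO 1 and -0.61 ± 0.12 (limma adjusted p = 2.64e-04) in KO 2, and KO 2 lay above KO 1 by 3.16 ± 0.12 (limma adjusted p = 4.23e-13). SEMA3E, which binds PLXND1 without a neuropilin, had counts of 114, 131 and 91.4 in WT, 475, 415 and 459 in CRISPR Control, 2.16, 11.3 and 3.53 in clone KO 1 and 75.4, 59.6 and 34.3 in clone KO 2. Its KO 1 libraries held at most 10 reads, a change of -4.32 ± 0.36 (limma adjusted p = 2.27e-08) against WT. In KO 2 the change against WT was -1.03 ± 0.36 (limma adjusted p = 0.0214), and that call was lost without KO 2 replicate 3 (-0.72, limma adjusted p = 0.121), WT replicate 1 (-1.01, limma adjusted p = 0.0575) or WT replicate 2 (-0.92, limma adjusted p = 0.0752). SEMA3D had counts of 45.3, 58.2 and 67.6 in WT, 162, 133 and 153 in CRISPR Control, 2.16, 1.13 and 7.95 in clone KO 1 and 33.1, 49.98 and 45.4 in clone KO 2. It was lower than WT in KO 1 (-3.87 ± 0.38, limma adjusted p = 1.7e-07) and higher in CRISPR Control (1.39 ± 0.38, limma adjusted p = 0.00447), and KO 2 did not pass against WT (-0.41 ± 0.38, limma adjusted p = 0.375).

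SEMA3C, SEMA3E, SEMA3A and SEMA3D lie in this order on the minus strand of chromosome 7, from 80742538 to 85187056. The other 3 tested genes of that stretch were looked up after these values had been seen. HGF, the growth factor that binds the receptor MET, averaged 0.998 ± 0.118 normalised counts in WT and 150.1 ± 11.5 in CRISPR Control, and at most a few in the KO lines (1.47 ± 1.27 and 2.62 ± 2.11). It entered the tested set only through CRISPR Control, so it had to be highest there. CACNA2D1, a calcium channel subunit, averaged 647 ± 68.96 in WT and 2297 ± 118 in CRISPR Control, and PCLO, a presynaptic scaffold, 69.8 ± 9.04 and 393 ± 164. In KO 2 both lay above WT, at 1276 ± 102 and 452 ± 48.8, while the means of the 4 semaphorins lay below it. In KO 1 CACNA2D1 lay below WT, at 460.5 ± 46.3, as the 4 semaphorins did, and PCLO above it, at 267 ± 12.6. SEMA3B, SEMA3F and SEMA3G lie on chromosome 3. SEMA3F, a ligand of NRP2, was lowest in WT and averaged 447 ± 34.7 there, 902 ± 107 in CRISPR Control, 752 ± 18.9 in clone KO 1 and 661 ± 85.4 in clone KO 2. SEMA3B, 78.5 kb from SEMA3F, was lower than WT in KO 1 (-1.14 ± 0.23, limma adjusted p = 6e-04) and also in KO 2 (-0.84 ± 0.23, limma adjusted p = 0.00409), while SEMA3F was higher than WT in both. SEMA3G averaged 19.9 ± 6.98 in WT and did not pass against WT in any line, with adjusted p by limma from 0.0907 to 0.516.

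Among the membrane semaphorins of classes 4 to 7, SEMA4B led in every line. It held 73.5% ± 0.380 of their level per exon kilobase in WT and 40.8% ± 1.80 in CRISPR Control. Its counts were 27153, 24737 and 26833 in WT, 9757, 8254 and 10719 in CRISPR Control, 27406, 26889 and 27611 in clone KO 1 and 21728, 24262 and 23699 in clone KO 2, low in CRISPR Control alone. CRISPR Control lay below WT (-1.46 ± 0.08, limma adjusted p = 4.74e-11), and neither KO line passed against WT (0.06 ± 0.08, limma adjusted p = 0.632 in KO 1 and -0.18 ± 0.08, limma adjusted p = 0.0839 in KO 2). SEMA7A, a lipid-anchored semaphorin that binds PLXNC1 and integrins, had counts of 205, 192 and 211 in WT, 743, 649 and 847 in CRISPR Control, 132, 93.4 and 95.4 in clone KO 1 and 184, 208 and 185 in clone KO 2. It was higher in CRISPR Control than in WT by 1.87 ± 0.14 (limma adjusted p = 2.23e-09), and lower in KO 1 (-0.93 ± 0.14, limma adjusted p = 3.74e-05), while KO 2 overlapped with WT. SEMA4D, the ligand of PLXNB1, had counts of 111, 105 and 97.2 in WT, 266, 215 and 271 in CRISPR Control, 70.2, 57.4 and 58.3 in clone KO 1 and 55.5, 43.8 and 42.4 in clone KO 2, with CRISPR Control highest and both KO lines below WT. Its changes against WT were 1.25 ± 0.17 (limma adjusted p = 4.68e-06) in CRISPR Control, -0.75 ± 0.17 (limma adjusted p = 0.00168) in KO 1 and -1.14 ± 0.17 (limma adjusted p = 1.22e-05) in KO 2.

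The class 6 semaphorins, which bind plexin-A receptors across cell contacts, went different ways. SEMA6B had counts of 3114, 2868 and 3302 in WT, 4279.9, 4531 and 5507 in CRISPR Control, 2963, 2399 and 2739 in clone KO 1 and 1268, 1459.9 and 1681 in clone KO 2, lowest in KO 2. There it differed from WT by -1.08 ± 0.11 (limma adjusted p = 1.08e-07) and from KO 1 by -0.88 ± 0.11 (limma adjusted p = 3.42e-06). SEMA6C had counts of 225, 242 and 197 in WT, 233, 203 and 251 in CRISPR Control, 492, 437 and 430.2 in clone KO 1 and 162, 208 and 208 in clone KO 2. It was higher in KO 1 alone, by 1.03 ± 0.13 (limma adjusted p = 4.94e-06) against WT and 0.98 ± 0.13 (limma adjusted p = 2.53e-06) against CRISPR Control. SEMA6A was low, with counts of 15.8, 13.6 and 13.3 in WT, 24.2, 10.7 and 18.7 in CRISPR Control, 4.32, 9.002 and 8.83 in clone KO 1 and 14.1, 15.8 and 21.2 in clone KO 2 that overlapped between WT, CRISPR Control and KO 2. KO 2 lay above KO 1 by 1.14 ± 0.38 (limma adjusted p = 0.023), and this call was lost without KO 1 replicate 1 (0.84, limma adjusted p = 0.113) or KO 2 replicate 3 (0.98, limma adjusted p = 0.0898). SEMA4C, a ligand of PLXNB2, was lower than WT in both KO lines by smaller amounts (-0.28 ± 0.08, limma adjusted p = 0.00981 in KO 1 and -0.58 ± 0.08, limma adjusted p = 5.29e-06 in KO 2). SEMA4F and SEMA4G stayed within a log2 fold change of 0.5 in all pairs, and MRPL43 on the opposite strand shares 22.9% of the exon bases of SEMA4G. SEMA4A, SEMA5A, SEMA5B and SEMA6D had at most 11.6 normalised counts in any library and were not tested.

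The plexins were expressed mainly as PLXNB2, PLXNA1, PLXND1 and PLXNA3. Their sum per exon kilobase was 3650.3 ± 197 in WT, 3771 ± 634 in CRISPR Control, 3311 ± 146 in clone KO 1 and 2725 ± 189 in clone KO 2. PLXNA2, a receptor of class 3 and class 6 semaphorins, showed the largest difference between the KO lines of all members. Its counts were 187, 132 and 154 in WT, 415, 342 and 391 in CRISPR Control, 61.6, 68.6 and 50.4 in clone KO 1 and 1229, 1358 and 1418 in clone KO 2, with the lines fully apart, KO 1 lowest and KO 2 highest. KO 1 lay below WT (-1.37 ± 0.14, limma adjusted p = 3.95e-07) and KO 2 above it (3.09 ± 0.14, limma adjusted p = 2.26e-12). KO 2 lay above KO 1 by 4.46 ± 0.14 (limma adjusted p = 6.01e-14). CRISPR Control also lay above WT, by 1.28 ± 0.14 (limma adjusted p = 4.32e-07). PLXNA4, the partner of NRP1 in sensory neurons, had counts of 13.6, 14.5 and 22.9 in WT, 8.64, 8.30 and 7.69 in CRISPR Control, 18.4, 18.003 and 11.5 in clone KO 1 and 56.3, 61.4 and 49.4 in clone KO 2, highest in KO 2, by 1.69 ± 0.30 (limma adjusted p = 1.15e-04) against WT. The lower level of PLXNA4 in CRISPR Control than in WT (-0.93 ± 0.30, limma adjusted p = 0.0145) was lost without WT replicate 3 (-0.71, limma adjusted p = 0.0866).

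PLXND1, the receptor of SEMA3E, had counts of 8961, 8522 and 9556 in WT, 14548, 10545 and 14362 in CRISPR Control, 7894, 7247 and 7816 in clone KO 1 and 4693, 5401 and 5213 in clone KO 2. It was higher than WT in CRISPR Control by 0.53 ± 0.10 (limma adjusted p = 2.02e-04), and lower in KO 2 (-0.82 ± 0.10, limma adjusted p = 1.29e-06), while KO 1 did not pass (-0.24 ± 0.10, limma adjusted p = 0.0744). PLXNA1 was lower than WT in clone KO 1 (-0.32 ± 0.11, limma adjusted p = 0.0223) and clone KO 2 (-0.90 ± 0.11, limma adjusted p = 7.74e-07), and PLXNB1 in KO 2 (-0.68 ± 0.11, limma adjusted p = 2.78e-05) and also in CRISPR Control (-0.44 ± 0.11, limma adjusted p = 0.00184). PLXNA3 (0.36 ± 0.10, limma adjusted p = 0.00693) and PLXNB3 (0.48 ± 0.17, limma adjusted p = 0.0253) were higher than WT in KO 2, and SRPK3 on the same strand shares 20.4% of the exon bases of PLXNB3. PLXNB2 changed by less than 0.3 on the log2 scale in all pairs. PLXNC1, the receptor of SEMA7A, passed in 0 of the 6 pairs by limma (against 13.1% of all genes) and likewise by edgeR and DESeq2, with 1 pair, KO 2 against WT, under 0.05 unadjusted, and its counts were 12.5 to 35.6.

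The neuropilins, coreceptors of class 3 semaphorins and of vascular endothelial growth factor, separated the KO lines. NRP2 had counts of 205, 234 and 209 in WT, 130.4, 108 and 114 in CRISPR Control, 935, 900.2 and 935 in clone KO 1 and 178, 174 and 189 in clone KO 2. KO 1 stood far above the other 3 lines and CRISPR Control lay below them. In KO 1 it was higher than in WT by 2.09 ± 0.11 (limma adjusted p = 3.37e-11), whereas KO 2 did not pass against WT (-0.25 ± 0.11, limma adjusted p = 0.0596). KO 2 lay below KO 1 (-2.35 ± 0.11, limma adjusted p = 7.95e-12). NRP1, the more abundant neuropilin in every line, averaged 4199 ± 78.3 in WT, 2929 ± 116 in CRISPR Control, 3839.6 ± 61.6 in clone KO 1 and 5382 ± 188 in clone KO 2. It was higher than WT in KO 2 (0.36 ± 0.06, limma adjusted p = 9.07e-05) and lower in CRISPR Control (-0.52 ± 0.06, limma adjusted p = 1.34e-06). Per exon kilobase NRP1 stood at 364 ± 6.80 in WT and 333 ± 5.35 in KO 1, where NRP2 stood at 15.5 ± 1.13 and 66.4 ± 1.45.

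ROBO1, ROBO2 and SLIT1 were highest in CRISPR Control. ROBO1 had counts of 1583, 1749 and 1896 in WT, 3740.0, 2541 and 2890.1 in CRISPR Control, 1341, 1219.7 and 1299 in clone KO 1 and 1502, 1406 and 1231 in clone KO 2. CRISPR Control lay above WT (0.80 ± 0.11, limma adjusted p = 1.13e-05) and KO 1 below it (-0.44 ± 0.11, limma adjusted p = 0.00585). The lower level of KO 2 (-0.34 ± 0.11, limma adjusted p = 0.0178) was lost without WT replicate 3 (-0.28, limma adjusted p = 0.0879) or KO 2 replicate 3 (-0.26, limma adjusted p = 0.0911). ROBO2, a related receptor, had counts of 1.13, 9.09 and 2.86 in WT, 156, 136 and 154 in CRISPR Control, 3.24, 1.13 and 0 in clone KO 1 and 0, 0 and 0 in clone KO 2, so that CRISPR Control alone held it at more than 10 normalised counts. It was at least 48.2-fold lower in clone KO 1 and at least 54.8-fold lower in clone KO 2 than in CRISPR Control. ROBO2 entered the tested set only through CRISPR Control, so these differences are given without a test. The call of KO 2 against WT for ROBO2 (-2.12 ± 0.61, limma adjusted p = 0.00638) was lost without WT replicate 2 (-1.52, limma adjusted p = 0.0504), and the WT libraries were near the floor. ROBO3, a divergent Robo of crossing axons, changed by less than 0.5 on the log2 scale in all pairs. It averaged 347 ± 32.1 in WT, 385 ± 31.1 in CRISPR Control, 481 ± 59.9 in clone KO 1 and 430.5 ± 14.8 in clone KO 2, and both KO lines passed against WT (0.47 ± 0.11, limma adjusted p = 0.00292 in KO 1 and 0.31 ± 0.11, limma adjusted p = 0.0229 in KO 2).

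ROBO4, the Robo of vessels, lies beside ROBO3. It averaged 16.6 ± 3.06 in KO 2 and 3.24 ± 0.847 in WT, under the minimum for a test, and an opposite-strand long noncoding RNA shares 11.2% of its exon bases. SLIT1 had counts of 15.8, 20.001 and 11.4 in WT, 46.6, 47.4 and 45.1 in CRISPR Control, 18.4, 7.88 and 11.5 in clone KO 1 and 19.9, 22.8 and 27.2 in clone KO 2, higher in CRISPR Control than in WT by 1.53 ± 0.32 (limma adjusted p = 4.91e-04). The difference of KO 2 from KO 1 in SLIT1 (0.90 ± 0.32, limma adjusted p = 0.0304) was lost without KO 1 replicate 2 (0.63, limma adjusted p = 0.152), and also without KO 1 replicate 3 or KO 2 replicate 2 or 3. SLIT3, the Slit with most reads, averaged 279.6 ± 10.2 in WT and 176 ± 30.8 in KO 1, a change of -0.68 ± 0.14 (limma adjusted p = 7.9e-04). SLIT2 had at most 1.10 normalised counts in any library.

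The study looked for genes called against WT in both knockout clones but not for CRISPR Control against WT. With a shared direction added, 5 members besides EPHA4 met this rule by limma (EPHA10, PLXNA1, ROBO3, SEMA3B and SEMA4C), a share near the 10.2% of all genes. Both KO comparisons share the WT libraries. EPHA4 met it too, but it was known beforehand and is not counted. EPHA4 lay lower in CRISPR Control than in WT as well, by -1.08 ± 0.46 (limma adjusted p = 0.0533), just short of passing, and edgeR, DESeq2 and an added count of 10 in place of 1 called that difference, so that it no longer met the rule. Without KO 1 replicate 2 the rule left EPHA10, ROBO3 and SEMA3B. PLXNA1, SEMA3B and SEMA4C were lower in the KO lines and EPHA10 and ROBO3 higher. All 6 KO libraries lay below the 6 others in 13 members and above them in 4, EPHA10, EPHB1, EPHB6 and ROBO3, together 17 of 50, against 24.7% of all genes on 1 side. EPHA4 is among the 13, and it was known beforehand for this split, so nothing is read from its place there. For the mean of the KO lines against the mean of WT and CRISPR Control, 39 members passed, 13 higher (32.9% of all genes) and 26 lower (33.0%), against 65.9% of all genes, and 21 of them by at least 1 on the log2 scale (14.5% of all genes). The 26 and the 21 include EPHA4, known from this comparison, and EPHA5 and ROBO2, tested only through CRISPR Control. Nothing is read from the places of these genes.

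A list of 58 intracellular partners of these receptors, such as adaptor proteins, kinases and GTPase regulators, was followed beside the members. Of 56 tested, 22 passed by limma in KO 1 against WT (10 higher, 12 lower), 26 in KO 2 against WT (10 higher, 16 lower) and 36 in CRISPR Control against WT (27 higher, 9 lower). Over all genes 35.5%, 55.0% and 53.4% passed, so the list's count was near the background in KO 1, below it in KO 2 and above it in CRISPR Control. In the same order 18.0%, 27.1% and 27.2% of all genes were higher and 17.5%, 27.9% and 26.3% lower. Its median log2 fold changes were -0.03, -0.07 and 0.21, where those of all genes were 0.0032, -0.0084 and 0.013. RND1, a small GTPase that binds plexins, averaged 35.3 ± 11.1 in WT, 14.2 ± 3.87 in CRISPR Control, 212 ± 5.07 in clone KO 1 and 211 ± 6.66 in clone KO 2. It was higher than WT in clone KO 1 (2.59 ± 0.21, limma adjusted p = 1.99e-08) and clone KO 2 (2.59 ± 0.21, limma adjusted p = 8.29e-09). FYN, a kinase of the Src family that relays semaphorin and Eph signals, averaged 40.8 ± 5.75 in WT, 348 ± 30.9 in CRISPR Control, 107 ± 5.84 in clone KO 1 and 146 ± 17.8 in clone KO 2, and was higher than WT in both KO lines (1.38 ± 0.15, limma adjusted p = 8.93e-07 in KO 1 and 1.82 ± 0.15, limma adjusted p = 9.18e-09 in KO 2). CRMP1, DPYSL3 and DPYSL4 code for collapsin response mediator proteins, which act downstream of SEMA3A. CRMP1 averaged 323 ± 11.7 in WT, 1679.9 ± 79.2 in CRISPR Control, 115 ± 30.7 in clone KO 1 and 125 ± 11.95 in clone KO 2, lower than WT in clone KO 1 (-1.52 ± 0.15, limma adjusted p = 2.78e-07) and clone KO 2 (-1.37 ± 0.15, limma adjusted p = 4.78e-07). DPYSL4 averaged 308 ± 21.1 in WT, 748 ± 85.3 in CRISPR Control, 151 ± 21.01 in clone KO 1 and 118 ± 20.01 in clone KO 2, below WT in both clones, with a change of -1.39 ± 0.14 (limma adjusted p = 1.47e-07) in KO 2. DPYSL3 averaged 23.9 ± 4.28 in WT, 361 ± 11.98 in CRISPR Control, 10.8 ± 8.03 in clone KO 1 and 43.6 ± 6.003 in clone KO 2, below WT in KO 1 (-1.41 ± 0.42, limma adjusted p = 0.0144) and with a mean above it in KO 2. The means of FYN, CRMP1, DPYSL3 and DPYSL4 were highest in CRISPR Control.

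Netrins and repulsive guidance molecules, the remaining classic guidance cues, were followed as a list of 16 genes, of which 11 were tested. Against WT, 8 passed in KO 1 (2 higher, 6 lower), 6 in KO 2 (4 higher, 2 lower) and 10 in CRISPR Control (8 higher, 2 lower), and between the KO lines 9 were higher and 0 lower in KO 2 by limma (0 also at an unadjusted p under 0.05, by edgeR and by DESeq2). Over all genes 35.5%, 55.0% and 53.4% passed against WT in that order, so the count in KO 2 was at the background, and 18.1% were higher and 20.1% lower in KO 2 than in KO 1. Against WT, in the same order, 18.0%, 27.1% and 27.2% of all genes were higher and 17.5%, 27.9% and 26.3% lower. NTNG2, a membrane-anchored netrin, averaged 210.4 ± 20.6 in WT, 136 ± 15.96 in CRISPR Control, 619 ± 43.2 in clone KO 1 and 1351 ± 171 in clone KO 2, above WT in clone KO 1 (1.55 ± 0.12, limma adjusted p = 8.91e-09) and clone KO 2 (2.67 ± 0.12, limma adjusted p = 1.88e-12). DRAXIN, a secreted repellent that binds netrin receptors, averaged 19.9 ± 3.28 in WT, 96.1 ± 11.9 in CRISPR Control, 29.7 ± 3.43 in clone KO 1 and 293 ± 12.4 in clone KO 2, with a change of 3.83 ± 0.19 (limma adjusted p = 4.58e-12) in KO 2. UNC5C, a receptor for repulsion by netrin, averaged 57.6 ± 10.8 in WT, 225 ± 28.9 in CRISPR Control, 11.6 ± 2.14 in clone KO 1 and 143 ± 5.52 in clone KO 2, and was lower than WT in KO 1 (-2.22 ± 0.19, limma adjusted p = 3.3e-08). RGMA, a ligand of neogenin, averaged 8.09 ± 2.12 in WT, 22.7 ± 5.99 in CRISPR Control, 1.11 ± 1.13 in clone KO 1 and 8.39 ± 1.99 in clone KO 2. It reached the minimum for a test only through CRISPR Control, so nothing is read from its place in the counts of that line. RGMA passed in KO 1 against WT (-2.24 ± 0.49, limma adjusted p = 0.00144), but its KO 1 mean lay under the floor. NTN1 averaged 690.2 ± 52.2 in WT, 886 ± 67.8 in CRISPR Control, 309 ± 26.7 in clone KO 1 and 425 ± 24.2 in clone KO 2, lower than WT in KO 2 (-0.70 ± 0.10, limma adjusted p = 9.29e-06) and with a still lower mean in KO 1. NEO1, the gene of neogenin, averaged 309 ± 64.2 in WT, 275 ± 20.4 in CRISPR Control, 289 ± 15.4 in clone KO 1 and 242 ± 16.1 in clone KO 2, with a change of -0.33 ± 0.13 (limma adjusted p = 0.0466) in KO 2.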

How the data were processed

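RNA of 12 libraries (4 lines, 3 each) was sequenced as paired 150-base reads. Per the study's methods the authors trimmed reads with Cutadapt, mapped them to GRCh38 with STAR and counted them per gene with featureCounts. The deposited signal is these counts divided by a DESeq2 size factor per library, and such scaling removes a shift shared by most genes. The strand setting and annotation release are not given in the sources used here. Whole reads were recovered for 100% of positive values (tolerance 0.01 reads) and gave the depth. The table's 4 other columns of values, line means, were not used, nor was 1 blank line.

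Limma 3.58.1 (R 4.3.3; lmFit, contrasts.fit, eBayes with trend) was fitted to log2(normalised count + 1) of all 12 libraries for the 15987 genes with a mean of at least 10, two-sided, with Benjamini-Hochberg adjustment over all of them and a threshold of 0.05. The fit was tested on simulated data. edgeR 4.0.16 and DESeq2 1.42.0 on recovered reads, other pseudocounts, filters and scalings, a replicate block and leaving out each library were alternatives. Positions and exon lengths are of GENCODE (GRCh38), which holds 59 of the 60 members in the table's version. Named in full were members called with an absolute log2 fold change of at least 1 in any pair, at most 30 of the 33 found (33.6% of all genes were such), by the largest change. From the partner and netrin lists the rule took the 2 highest and 2 lowest changes called in each KO line against WT. The members and lists were chosen with earlier results of these data known. Replicate pairs differed by more than counting noise (chi-square per gene 4.6 to 29.7).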

Additional observations from a re-analysis of the deposited data

Results flagged for a closer look

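TIMP1 was targeted in both KO lines, yet 24 of the 30 members named in full differed between them by limma (adjusted p under 0.05 over all genes, KO 2 against KO 1). The test of that difference is what singled them out. The 30 had been chosen for a called absolute log2 fold change of at least 1 in any pair of lines, this pair included. Their share is therefore partly fixed by that choice and is not compared with the share of all genes. Of all 50 tested members, 34 (68%) passed between KO 2 and KO 1, against 38.2% of all genes. Higher in KO 2, as log2 fold changes, were PLXNA2 (4.46), SEMA3D (3.46), SEMA3E (3.29), EPHA4 (3.19), SEMA3A (3.16), EPHB1 (2.71), EPHB3 (2.36), PLXNA4 (1.76), EFNB2 (1.38), EPHB6 (1.20), SEMA6A (1.14), SLIT1 (0.90), SEMA7A (0.86), EPHA10 (0.55), EFNA5 (0.35) and EPHB2 (0.31). Lower in KO 2 were NRP2 (-2.35), EFNA2 (-1.72), SEMA6C (-1.24), SEMA6B (-0.88), EPHB4 (-0.62), PLXND1 (-0.59), SEMA4B (-0.23) and EPHA2 (-0.23). PLXNA2 and EPHB3 were also called in opposite directions against WT. The clones also differ in TIMP1 level, and that and other differences between clones cannot be told apart.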

How the results depend on the processing

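Of 3030 values of the members named in full in the 6 pairs under the alternatives, 2911 kept their side of the threshold. Another 95 no longer passed and 24 newly passed. These counts follow the threshold only, so a small difference, such as that of EPHB2 between KO 1 and WT, may change its sign. With a least absolute log2 fold change of 1 added to the threshold, the counts of members called were 12 for KO 1 against WT (8.21% of all genes), 15 for KO 2 against WT (14.7%), 18 for CRISPR Control against WT (14.7%), 26 for KO 1 against CRISPR Control (21.2%), 25 for KO 2 against CRISPR Control (24.5%), 14 for KO 2 against KO 1 (8.25%) and 21 for the mean of the KO lines against the mean of WT and CRISPR Control (14.5%), and the intersection, 6 with EPHA4, was 1, EPHA4 itself, which was known beforehand, so nothing is read from it. Such a limit calls fewer by construction. With 1 library left out, the counts ran from 24 to 26, 30 to 33, 34 to 38, 38 to 45, 38 to 43, 29 to 31 and 37 to 40 in the same order, and the intersection from 3 to 6, with 3 without KO 1 replicate 2. The intersection was 5 by edgeR and by DESeq2, 4 after quantile normalization and 7 with no filter. No pairing by replicate number was clear. Of 18 same-numbered pairs of libraries of different lines, 2 had deviations correlated over 0.1, with a range from -0.13 to 0.16. Differently numbered pairs ranged from -0.19 to 0.13, and 6 of the 12 libraries correlated best with one of their own number. With the replicate number as a block the counts were 26, 35, 36, 44, 41, 34 and 39 and the intersection 6. On recovered reads edgeR called 5796 to 10889 and DESeq2 5894 to 10847 of the 15987 genes in the 6 pairs, where limma called 5682 to 10828. By edgeR the counts of members were 27, 35, 38, 44, 42 and 34, and by DESeq2 27, 35, 38, 43, 42 and 33 for the 6 pairs. Equal library totals moved the median of all genes, -0.01 on the log2 scale in each comparison with KO 2, to 0.11 against CRISPR Control, 0.09 against KO 1 and 0.09 against WT. For KO 2 against KO 1, calls lost without 1 library and not given above were those of EPHA2 (-0.25 to -0.18, without any KO library but KO 2 replicate 3), SEMA4B (-0.25 to -0.19, without any KO library but KO 2 replicate 2), EPHA10 (0.46 without KO 1 replicate 3 and 0.51 without KO 2 replicate 1) and SLIT1 (0.79 to 0.91 without KO 1 replicate 3 or KO 2 replicate 2 or 3). For KO 1 against CRISPR Control they were PLXNA4 (0.74 and 0.76 without KO 1 replicates 1 and 2) and SEMA6A (-0.91 without CRISPR Control replicate 1 and -0.86 without KO 1 replicate 1). Depth limits the 10 members under the minimum and the low levels of EPHB1, ROBO2, EPHA5, SEMA3D and SEMA3E, where a few reads decide a fold.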
